A study of Mus musculus with 6 samples.

Results

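The antioxidant enzymes described here are 10 genes: Gpx1, Gpx4, Txn1, Prdx1, Prdx2, Prdx5, Sod1, Sod2, Cat and Hmox1. They were chosen by name, and all 10 were found among the 17068 genes of the deposited tables. The cells were haematopoietic stem cells (HSCs), the cells that renew the blood, sorted from the bone marrow of 6 mice and profiled with 10X single-cell RNA sequencing. Every mouse carried Gfp-Lc3, a transgene that fuses a fluorescent protein to the autophagosome protein LC3 and is used to follow autophagy. The groups were a young and an old mouse fed ad lib, a young and an old mouse fasted for 24 h, and a young and an old mouse fasted for 24 h and then refed for 24 h, so each group was 1 mouse and 1 library. The series addressed how a transient rise of autophagy alters HSC transcripts. The deposited tables compared each of 11 cell clusters with all other cells after the 6 libraries had been pooled. No value could be assigned to a mouse, an age or a feeding state, and differences between these were not analysed here.

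Aerobic cells make superoxide, mainly at the mitochondrial respiratory chain and at NADPH oxidases. Superoxide dismutases turn it into hydrogen peroxide, which catalase, glutathione peroxidases and peroxiredoxins reduce to water. Peroxiredoxins are recharged by thioredoxin, and glutathione peroxidases by glutathione, and both systems draw on NADPH. Haem oxygenase opens the haem ring and is a textbook target of the stress-responsive factor NRF2, which binds the antioxidant response element. Quiescent HSCs are known for low mitochondrial activity and low levels of reactive oxygen species, and for losing function when these rise.

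Promoter sequence was read for 9 of the 10 genes, which have 12 promoters in RefSeq on GRCm38.p6, 4 of them for Gpx4. The 250 bases before each RefSeq start were searched on both strands. The core of the antioxidant response element, TGACNNNGC, was found for Prdx1 and Sod1 and in 10.2% of all 32851 RefSeq promoters of that length. The AP-1 motif TGANTCA was found for Prdx1 and in 6.75% of all promoters, and 1 of its matches in Prdx1 lies inside the antioxidant response element match. A GC box, GGGCGG, was found for 7 of the genes (Cat, Gpx4, Prdx1, Prdx5, Sod1, Sod2 and Txn1; 32.7% of all promoters). CCAAT was found for Cat, Gpx4, Sod1 and Sod2 (33.8% of all promoters), and TATAAA for Prdx1, Sod1 and Txn1 (12.4%). The FOXO motif TGTTTAC (3.17% of all promoters) and the E-box CACGTG (6.02%) were not among the letters of these windows. These matches describe the letters only.

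The promoters of 3 genes are printed 5′ to 3′ on the strand of the gene: Txn1, the gene called higher in a cluster below, and Prdx1 and Sod1, which hold the antioxidant response element core. Txn1 is chr4:57956412-57956661 on the minus strand, with GC boxes and TATAAA in capitals. Prdx1 is chr4:116685349-116685543 on the plus strand, printed up to its first annotated exon. Its capitals mark an AP-1 match from 237 to 231 bases before the RefSeq start, and an antioxidant response element match from 133 to 125 bases before it that holds an AP-1 match from 131 to 125. Sod1 is chr16:90220512-90220753 on the plus strand, with the antioxidant response element match from 56 to 48 bases before the RefSeq start in capitals.
Txn1: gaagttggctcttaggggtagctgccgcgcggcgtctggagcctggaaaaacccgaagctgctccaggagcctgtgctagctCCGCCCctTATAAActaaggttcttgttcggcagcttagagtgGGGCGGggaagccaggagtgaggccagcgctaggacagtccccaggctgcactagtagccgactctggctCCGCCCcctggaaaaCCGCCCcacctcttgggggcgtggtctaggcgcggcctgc
Prdx1: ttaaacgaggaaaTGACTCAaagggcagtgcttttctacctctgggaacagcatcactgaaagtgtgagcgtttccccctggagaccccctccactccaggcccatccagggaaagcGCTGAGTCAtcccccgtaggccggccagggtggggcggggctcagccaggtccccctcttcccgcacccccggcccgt
Sod1: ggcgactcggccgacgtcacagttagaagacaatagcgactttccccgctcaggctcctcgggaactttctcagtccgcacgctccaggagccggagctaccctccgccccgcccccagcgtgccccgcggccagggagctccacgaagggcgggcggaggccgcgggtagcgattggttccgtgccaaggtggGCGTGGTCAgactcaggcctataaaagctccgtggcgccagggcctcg

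Levels are given as the mean count of a gene per 10000 counts of a cell. The authors deposited each gene's mean over all cells and the log2 fold of each cluster against all other cells. The level in a cluster was estimated from these and from the number of cells in the cluster. A gene was called higher or lower where the deposited log2 fold was at least 0.5 in size and the deposited adjusted p was under 0.05. That p counts cells of pooled mice as replicates, so it served as a filter on noise, and no p is reported. The clusters were built from the same cells' transcripts, so the folds are descriptions. There is no spread over mice, and neighbours in an order of clusters cannot be told apart. A level per cell also cannot separate a change in every cell from a change in the share of cells with the transcript.

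Clusters 0 to 5 held 4904, 3955, 3910, 3802, 3747 and 1188 cells. Clusters 6 to 10 were small, with 310, 267, 173, 112 and 10 cells, of 22378 in all. Depth per library is not given in the files. For 19 cells it could be read, and their totals ran from 4239 to 22599 counts with a median of 11707. The sort was checked on 10 genes of long-term HSCs (Procr, Mecom, Hlf, Mllt3, Fgd5, Ly6a, Slamf1, Kit, Tek and Ctnnal1). Each had counts in every cluster, with a summed level between 11.7 and 19.7 per 10000.

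Across the 11 clusters, 7 of the 110 pairs of gene and cluster were called. In cluster 7, 6 of the 10 enzymes were called lower (Gpx1, Gpx4, Txn1, Prdx1, Prdx2 and Prdx5), where 24.3% of all 17068 genes were called lower and 1.84% higher. In cluster 8, Txn1 was called higher, where 2.37% of all genes were called higher and 19.5% lower. No enzyme was called in the other clusters. Of all genes, the shares called higher in clusters 0 to 5 were 2.4%, 0.123%, 3.02%, 0.703%, 0.387% and 0.135%. The shares called lower in these clusters were 6.62%, 2.4%, 3.49%, 1.9%, 1.35% and 4.87%. In clusters 6, 9 and 10, 0.0469%, 1.2% and 1.79% of all genes were called higher and 26.2%, 19.9% and 27.6% lower. In clusters 6 to 10, between 2551 and 4910 genes had no count at all. The antioxidant enzymes showed small shifts in most clusters, and these differed between the genes.

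**Figure D1:**
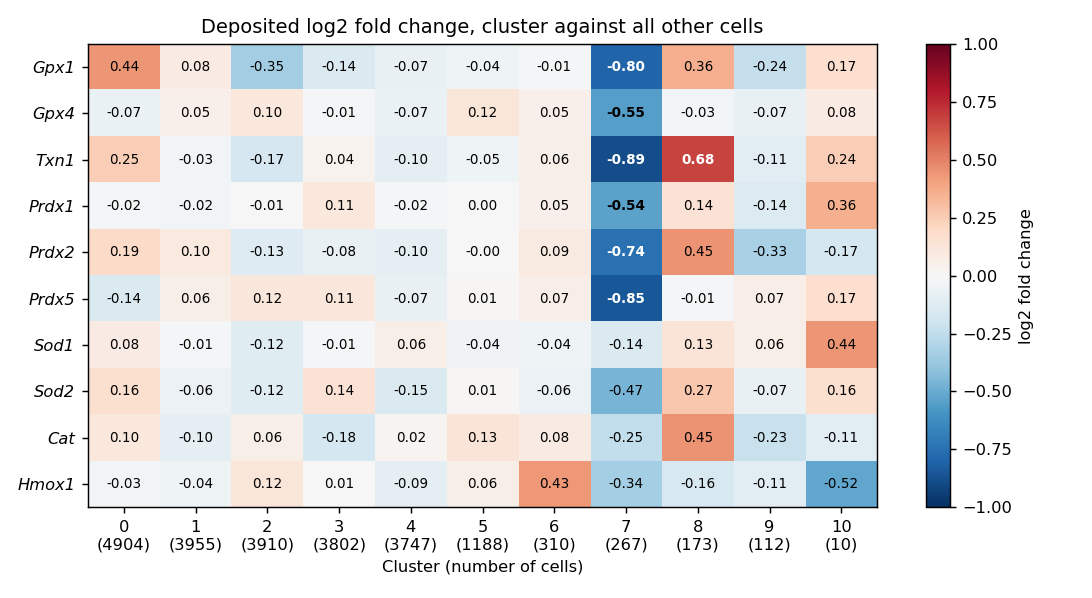
Log2 fold of each antioxidant enzyme gene (rows) in each cluster against all other cells (columns, with the number of cells in brackets), as the authors deposited it, from blue (lower) to red (higher), with called values in bold. Cluster 7 is blue for all 10 genes, from -0.14 for Sod1 to -0.89 for Txn1, and Gpx1 is 0.44 in cluster 0 and -0.35 in cluster 2.

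Among the glutathione peroxidases, Gpx1 (chr9:108338903-108340343, plus strand), which reduces hydrogen peroxide with glutathione in the cytosol and mitochondria, had a mean level of 5.25 per 10000 over all cells. Its estimated level was 6.62, 5.50, 4.29, 4.83, 5.03, 5.11, 5.21, 3.03, 6.73 and 4.46 per 10000 in clusters 0 to 9. It was high in clusters 0 and 8 and low in clusters 7 and 2. The authors' deposited tables gave Gpx1 a log2 fold of 0.44 in cluster 0 and 0.36 in cluster 8, against -0.35 in cluster 2 and -0.80 in cluster 7. Over the 6 large clusters its log2 folds spanned 0.79, the widest span of the 10 genes there. Gpx4 (chr10:80047166-80056439, plus strand) reduces lipid hydroperoxides in membranes and protects cells from ferroptosis. Its estimated level was 4.36, 4.66, 4.79, 4.48, 4.34, 4.88, 4.68, 3.09, 4.42 and 4.29 per 10000 in clusters 0 to 9, around a mean of 4.52. Outside cluster 7, where the authors' deposited table gave Gpx4 a log2 fold of -0.55, it stayed between -0.07 and 0.12.

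Txn1 (chr4:57943373-57956411, minus strand) encodes the cytosolic thioredoxin that returns electrons to peroxiredoxins and other oxidised proteins. Its estimated level was 4.57, 3.94, 3.64, 4.09, 3.79, 3.89, 4.18, 2.18, 6.38 and 3.72 per 10000 in clusters 0 to 9, around a mean of 4.01. It was highest in cluster 8 and lowest in cluster 7, and its log2 folds spanned 1.56 over clusters 0 to 9, the widest span of the 10 genes. The authors' deposited tables gave Txn1 a log2 fold of 0.68 in cluster 8 (1.60-fold) and 0.25 in cluster 0, against -0.89 in cluster 7 and -0.17 in cluster 2.

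The peroxiredoxins are thiol peroxidases that take electrons from thioredoxin. Prdx2 (chr8:84969587-84974834, plus strand), a cytosolic form that is abundant in red cells, had an estimated level of 4.26, 4.06, 3.58, 3.68, 3.64, 3.84, 4.10, 2.31, 5.23 and 3.07 per 10000 in clusters 0 to 9. Like Txn1 and Gpx1, it was high in clusters 8 and 0 and low in cluster 7. The authors' deposited tables gave Prdx2 log2 folds of 0.45 and 0.19 in clusters 8 and 0, and of -0.74, -0.33 and -0.13 in clusters 7, 9 and 2. Its exons overlap those of Junb and Rnaseh2a on the opposite strand, and the strand rule of the counting was not given in the sources used here. Prdx1 (chr4:116685544-116700822, plus strand), the other cytosolic form measured, had an estimated level of 3.07, 3.06, 3.09, 3.30, 3.06, 3.10, 3.21, 2.14, 3.43 and 2.82 per 10000 in clusters 0 to 9. It was the most even of the 10 genes over clusters 0 to 5, with log2 folds that spanned 0.13, and was -0.54 in cluster 7 in the authors' deposited table. Prdx5 (chr19:6906697-6910106, minus strand) acts in mitochondria, peroxisomes and the cytosol. Its estimated level was 1.99, 2.23, 2.30, 2.30, 2.07, 2.17, 2.26, 1.20, 2.14 and 2.26 per 10000 in clusters 0 to 9. It was low in cluster 7 and, among the large clusters, lowest in cluster 0, where Gpx1 was highest. The authors' deposited tables gave Prdx5 log2 folds of -0.85 and -0.14 in clusters 7 and 0, and of 0.12 and 0.11 in clusters 2 and 3. Its exons overlap those of Trmt112 on the opposite strand.

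**Figure D2:**
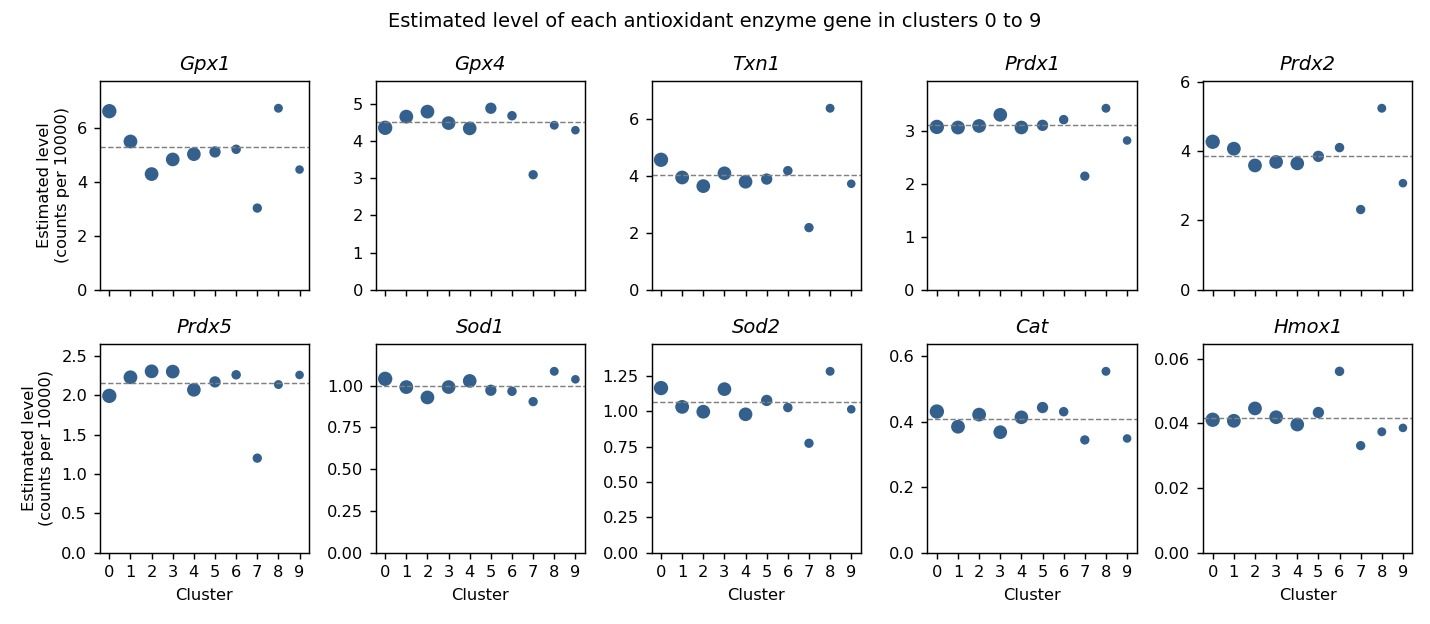
Estimated level of each antioxidant enzyme gene per 10000 counts (vertical axes, each from 0) in clusters 0 to 9 (horizontal axes), 1 panel per gene, with point area growing with the number of cells and a dashed line at the mean over all cells. The point of cluster 7 lies under the line in every panel, at 3.03 against 5.25 for Gpx1, while Sod1 stays between 0.904 and 1.09.

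The superoxide dismutases take the first step, from superoxide to hydrogen peroxide. Sod1 (chr16:90220754-90226329, plus strand), the copper and zinc enzyme of the cytosol, had an estimated level of 1.04, 0.991, 0.929, 0.991, 1.03, 0.972, 0.966, 0.904, 1.09 and 1.04 per 10000 in clusters 0 to 9. Its log2 folds spanned 0.27 over these clusters, the narrowest span of the 10 genes, and it was -0.14 in cluster 7 in the authors' deposited table. Sod2 (chr17:13006846-13040063, plus strand), the manganese enzyme of the mitochondrial matrix, had an estimated level of 1.16, 1.03, 0.996, 1.16, 0.978, 1.08, 1.03, 0.773, 1.28 and 1.01 per 10000 in the same clusters. It was low in cluster 7 and highest in cluster 8, with log2 folds of -0.47 and 0.27 in the authors' deposited tables, and neither was called.

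Cat (chr2:103453849-103485160, minus strand), the catalase of peroxisomes, had an estimated level of 0.431, 0.385, 0.422, 0.368, 0.414, 0.444, 0.431, 0.345, 0.554 and 0.349 per 10000 in clusters 0 to 9. It was highest in cluster 8, where the authors' deposited table gave a log2 fold of 0.45 that was not called. That level came from 95.9 scaled counts, the level multiplied by the number of cells. Hmox1 (chr8:75093621-75100589, plus strand), the inducible haem oxygenase, was barely detected, with a mean of 0.0417 per 10000. Its estimated level was 0.0411, 0.0408, 0.0446, 0.0419, 0.0396, 0.0433, 0.0560, 0.0331, 0.0374 and 0.0386 per 10000 in clusters 0 to 9. The highest of these, in cluster 6, came from 17.4 scaled counts, and the values in clusters 7, 8 and 9 from 8.84, 6.46 and 4.32. A log2 fold of 0.43 for Hmox1 in cluster 6, from the authors' deposited table, was not called.

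Clusters 0 and 2, of 4904 and 3910 cells, divided the enzymes. Gpx1, Txn1, Prdx2, Sod2 and Sod1 were above the rest in cluster 0 and below it in cluster 2. Prdx5, Gpx4 and Hmox1 went the other way round. The log2 folds in clusters 0 and 2 were 0.16 and -0.12 for Sod2, 0.08 and -0.12 for Sod1, and -0.03 and 0.12 for Hmox1. Cat was above the rest in both clusters and Prdx1 below it in both. Each of these clusters is part of the other's rest, so the opposite signs are linked. In cluster 0, Gpx1 stood at the 98.4th percentile of the folds of the 1216 genes with a mean level of at least 1 per 10000, Txn1 at the 93.2nd and Prdx2 at the 88.0th, against the 10.6th for Prdx5 and the 21.7th for Gpx4. In cluster 2, Gpx1 was at the 2.47th percentile, Txn1 at the 9.62nd and Prdx2 at the 15.2th, against the 83.3rd for Prdx5 and the 80.6th for Gpx4. The log2 fold of Gpx1 exceeded that of Gpx4 by 0.51 in cluster 0, and in cluster 2 the difference was -0.45. With a fold of at least 0.25 in place of 0.5, Gpx1 alone was called higher in cluster 0 (6.55% of all genes higher) and alone was called lower in cluster 2 (6.37% of all genes lower). Of the 10 long-term HSC genes, 5 were called lower in cluster 0 (list median -0.51, summed level 11.9 per 10000) and 4 higher in cluster 2 (list median 0.45, summed level 19.0). Of 8 megakaryocyte genes, 6 were called higher in cluster 0, with a list median of 0.89 and none at 0. All 4 measured mast cell or basophil genes were above 0 in cluster 0, 2 of them called higher, with a list median of 2.21 and a summed level of 2.16 per 10000 against 1.89. All 10 cycling genes were above 0 there, 1 of them called, with a list median of 0.27 and a summed level of 1.84 per 10000 against 1.57. Of the genes of T or NK cells and of neutrophils or monocytes, Nkg7 and Ms4a3 were called higher in cluster 0, at 2.09 and 1.69 in the authors' deposited table. Nkg7 was the 1 gene above 0 of 4 measured for T or NK cells, with a list median of -1.08 and Trbc1 at 0. Of 10 genes of neutrophils or monocytes, 5 were above 0, with a list median of 0.09. The part of these markers in the enzyme differences was not tested.

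**Figure D3:**
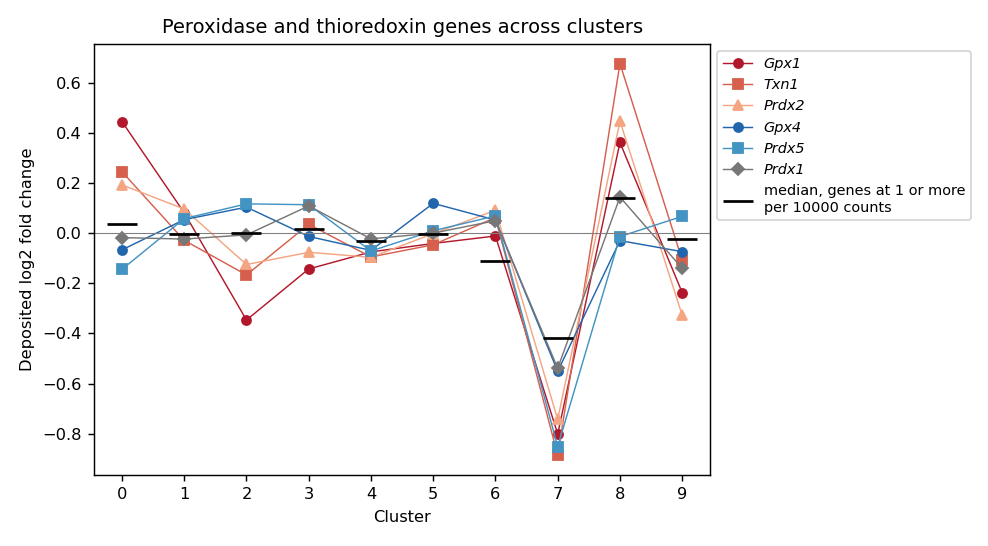
Deposited log2 fold against the rest (vertical axis) of Gpx1, Txn1, Prdx2, Gpx4, Prdx5 and Prdx1 in clusters 0 to 9 (horizontal axis), with a black bar at the median of the 1216 genes with a mean level of at least 1 per 10000. Gpx1, Txn1 and Prdx2 lie above the bar in clusters 0 and 8 and below it in cluster 2, and all 6 lie below it in cluster 7, where the bar is at -0.42.

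Cluster 7, of 267 cells, was below the rest for all 10 enzymes in the deposited folds. Sod1, Cat and Hmox1 stood above the median of well-detected genes there, but their own mean levels were under 1 per 10000. At -0.14, -0.25 and -0.34, they lay below the median over all genes with a count in cluster 7, which was -0.04. The estimated level was 0.574 times that of the other cells for Gpx1 (3.03 against 5.27 per 10000), 0.541 times for Txn1 (2.18 against 4.03), 0.598 times for Prdx2 (2.31 against 3.87) and 0.554 times for Prdx5 (1.20 against 2.17). It was 0.682 times for Gpx4 (3.09 against 4.53) and 0.688 times for Prdx1 (2.14 against 3.11). The median log2 fold of the 10 enzymes was -0.55. Well-detected genes were lower in general in this cluster: over the 1216 genes with a mean level of at least 1 per 10000 the median log2 fold was -0.42, and 501 of them (41.2%) were called lower. Of the 10 enzymes, 7 lay below that median, and 6 of the 7 with a mean level of at least 1 per 10000 were called lower. Relative to that median the shift was -0.47 for Txn1, -0.43 for Prdx5, -0.38 for Gpx1 and -0.32 for Prdx2, and none of the 10 was then past 0.5. Gpx4, Prdx1 and Sod2 stood at -0.13, -0.12 and -0.05 from it, whereas these 3, Sod1, Cat and Hmox1, were higher by 0.28, 0.17 and 0.08. With a fold of at least 0.25 in place of 0.5, 7 enzymes were called lower (28.1% of all genes).

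Transcripts encoded in the mitochondrial genome were raised in the same cells. All 13 such genes measured were called higher in cluster 7, with a list median of 1.17, and they took 9.35% of its counts against 4.21% in the other cells. Scaled to the counts outside these genes, every log2 fold in cluster 7 rose by 0.08, which left Gpx4 at -0.47 and Prdx1 at -0.46, short of a call. The other 4 called enzymes stayed past it, at -0.72 for Gpx1, -0.81 for Txn1, -0.66 for Prdx2 and -0.77 for Prdx5. The long-term HSC genes were at a list median of -0.03 in cluster 7, with 1 called higher and 1 lower. Of 11 erythroid genes, 6 were called lower there, 4 of which had no count (Alas2, Car1, Klf1 and Slc4a1), and of 10 cycling genes none was called. The part of these markers in the enzyme values of cluster 7 was not tested.

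Cluster 8, of 173 cells, held the enzyme transcripts at their highest sum, 31.3 per 10000 against 25.3 in the other cells. Txn1 was 59.8% higher than in the other cells (6.38 against 3.99 per 10000) and stood at the 99.1st percentile of the folds of the 1216 well-detected genes. Prdx2 was 36.3% higher and Cat 36.3% higher, at the 94.2nd and 94.3rd percentiles, and Gpx1 was 28.5% higher, at the 87.5th. Cat itself had a mean level under 1 per 10000, and its value came from 95.9 scaled counts, against 905 for Prdx2. Gpx4 and Prdx5 did not follow, with log2 folds of -0.03 and -0.01 in the authors' deposited table. The median log2 fold was 0.21 over the 10 enzymes and 0.14 over the well-detected genes, and relative to the latter Txn1 was 0.54 higher. With a fold of at least 0.25 in place of 0.5, 5 enzymes were called higher (6.03% of all genes higher). Of 10 genes of cycling cells, 8 were above 0 in cluster 8 and 1, Mki67, was called higher at 2.98 in the authors' deposited table. Their summed level was 1.93 per 10000 against 1.63 in the other cells. The value of Mki67 came from 26.8 scaled counts. Of the 10 long-term HSC genes, 4 were called lower in cluster 8 (Ly6a, Procr, Mllt3 and Slamf1; list median -0.14, summed level 14.0 per 10000 against 15.7). Megakaryocyte genes had a list median of -0.33 there, with 3 of 8 called lower and Ppbp at 0, and neutrophil or monocyte genes -0.67, with 4 of 10 called lower and Csf1r, Ctsg and Ly6c2 at 0. The part of these markers in the enzyme values was not tested.

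In cluster 6, of 310 cells, the enzymes stood near the rest where most other transcripts were lower. The median log2 fold was 0.06 over the 10 enzymes, -0.11 over the well-detected genes and -0.32 over all genes, and all 10 enzymes lay above the median of the well-detected genes. With a fold of at least 0.25, none was called (0.105% of all genes higher and 33.2% lower). Erythroid genes had a list median of 1.99 in cluster 6, with Hbb-bs called higher at 1.99 in the authors' deposited table and Car1 at 0, and a summed level of 20.9 per 10000 against 10.1 in the other cells. Prdx2, which red cells hold in quantity, was at 0.09 there in the authors' deposited table. Macrophage genes, of which 7 were measured, had a list median of 1.17 in the same cluster, with none called higher, Adgre1 at 0 and a summed level of 0.175 per 10000. All 4 measured genes of T or NK cells were above 0, none called, at a summed level of 0.385 per 10000. None of the 10 long-term HSC genes was above 0 in cluster 6, and 4 were called lower (list median -0.38, summed level 11.7 per 10000 against 15.8). Of the 13 mitochondrially encoded genes, 11 were called lower (list median -0.74), and they took 2.89% of the counts against 4.29% in the other cells. The part of these markers in the enzyme values of cluster 6, Hmox1 included, was not tested. In cluster 9, of 112 cells, 8 of the 10 enzymes were below 0, with Prdx2 lowest. At a fold of at least 0.25, Prdx2 alone was called lower there (20.3% of all genes lower).

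How far the enzymes varied together depended on cluster 7. Over clusters 0 to 9, Pearson's r between the log2 folds of 2 enzymes was above 0 for 44 of the 45 pairs, with a median of 0.66. Over clusters 0 to 5 it was above 0 for 23 of the 45, with a median of 0.01, and over clusters 0 to 9 without cluster 7 for 29, with a median of 0.29. These values describe 10, 6 and 9 clusters that share libraries, depth and scaling. Within clusters 0 to 5, Gpx1 went with Prdx2 (r = 0.94) and Txn1 (r = 0.89) and against Prdx5 (r = -0.79) and Gpx4 (r = -0.52). Gpx4 and Prdx5 went together there (r = 0.64), over clusters 0 to 9 (r = 0.94) and over these without cluster 7 (r = 0.51). Pairs with Sod1 or Hmox1 were also strong over clusters 0 to 5. Gpx1 went with Sod1 (r = 0.80), Gpx4 with Hmox1 (r = 0.79), and Sod1 against Gpx4 and Hmox1 (each r = -0.87).

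Likeness was sought among 8246 genes (8247 for Hmox1), the other enzymes included except Hmox1, whose mean level was below the median. The genes whose log2 folds over clusters 0 to 9 were most like an enzyme (Pearson's r over 10 clusters) were the following. Atpif1 (0.98), Acaa2 (0.97) and Nudt1 (0.97) were closest to Gpx1. Smim8, Kxd1 and Pfdn5 (each 0.97) were closest to Gpx4. For Txn1 they were Snrpb, Ndufb3 and Atp5c1 (each 0.99), for Prdx1 Spag7 (0.98), Phf5a (0.98) and Cct8 (0.97), for Prdx2 Psmd8, Mrpl32 and Mrps14 (each 0.99), and for Prdx5 Tpt1, Pdrg1 and Pfdn2 (each 0.98). Sod2 was most like Rrp15, Wdr4 and Apex1 (each 0.98). For Cat they were Atg101 (0.93), Ino80c (0.93) and Abhd4 (0.92), and for Hmox1 Hbb-bt (0.86), Git1 (0.86) and Limd2 (0.85). Without cluster 7, 5 of the 30 genes, 3 for each enzyme, were named again, and the genes closest to Gpx1 became Slc22a3 (0.98), Cmtm7 (0.98) and Rasal3 (0.96). Over clusters 0 to 5 none of the 30 was named again.

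The wider antioxidant network was read from 8 lists with 114 other genes, of which 113 were measured. In cluster 7, 28 of them (24.8%) were called lower and none higher, beside 24.3% and 1.84% of all genes. The 28 all had counts there, whereas 2740 of all genes had none, so the shares are not of like genes. The lists' members called lower were 9 of 28 of the glutathione system, 4 of 16 of the thioredoxin system, 4 of 9 superoxide sources and copper carriers, 5 of 12 genes of haem breakdown and iron, 4 of 17 selenoproteins and selenocysteine factors, 1 of 12 NRF2 regulators and targets, 1 of 12 regulators of oxidative stress in HSCs, and none of 7 genes of NADPH supply. The median log2 fold of the 113 genes was -0.31, against -0.17 over all genes and -0.04 over the genes with a count in cluster 7. The authors' deposited table gave Ftl1 and Fth1, the ferritin chains, log2 folds of -0.75 and -0.68. Blvrb and Blvra, the biliverdin reductases that act after haem oxygenase, were at -0.70 and -0.62 in the authors' deposited table. Glutaredoxin, Glrx, was at -0.87 and the microsomal glutathione transferases Mgst1 and Mgst2 at -0.81 and -0.78 there, per the authors' deposited table. Further genes called in cluster 7 in the authors' deposited table were the selenoproteins Selenow (-0.996) and Selenok (-0.68), the methionine sulfoxide reductase Msrb1 (-0.88), the thioredoxin-like Txnl1 (-0.61), the copper chaperone Atox1 (-0.75), the oxidase regulator Rac2 (-0.56), the autophagy receptor Sqstm1 (-0.58) and Park7 (-0.68).

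In cluster 0, 3 of the 113 genes (2.65%) were called higher and 6 (5.31%) lower, beside 2.4% and 6.62% of all genes. In cluster 2, 2 (1.77%) were called higher and 4 (3.54%) lower, beside 3.02% and 3.49% of all genes. These shares are near those of all genes, and the genes called are described singly. Ncf4, a subunit of the phagocyte NADPH oxidase, stood in the authors' deposited tables at 1.20 in cluster 0 and -0.99 in cluster 2, and Ucp2, a carrier of the inner mitochondrial membrane, at 0.60 and -0.53. Msrb3, a methionine sulfoxide reductase, was at -1.27 and 1.00 in the same clusters, and Maff, a small MAF protein that pairs with NRF2, at -0.76 and 0.67, in the authors' deposited tables. Other genes called in cluster 0 were Ncf1 (0.56), the secreted glutathione peroxidase Gpx3 (-0.86), the glutathione transferase Gstm1 (-0.54), Osgin1 (-0.58) and the malic enzyme Me1 (-0.61), per the authors' deposited table. Gstm2 (-0.83) and Gpx8 (-0.57) were called lower in cluster 2 in the authors' deposited table. In cluster 1, 1 gene was called higher and 1 lower, the cystine importer Slc7a11 (0.73) and Gpx3 (-0.50), and in cluster 3 likewise Gpx3 (0.80) and Ncf4 (-0.62), in the authors' deposited tables. Each is 0.885% of the 113 genes. Of all genes, 0.123% were called higher and 2.4% lower in cluster 1, and 0.703% and 1.9% in cluster 3. No gene of the 113 was called in clusters 4 and 5. Msrb3, Ncf1, Me1, Slc7a11 and Ncf4 had lower mean levels over all cells than the barely detected Hmox1. Their log2 means were -5.99, -5.73, -5.18, -4.91 and -4.74, against -4.58. In cluster 0 the values of Msrb3, Me1 and Ncf1 came from 36.7, 95.7 and 124 scaled counts.

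In cluster 6, the median log2 fold of the 113 genes was -0.15, against -0.32 over all genes and -0.23 over the genes with a count. Of the 113, 12 (10.6%) were called lower and none higher, beside 26.2% and 0.0469% of all genes. The 12 all had counts there, whereas 2551 of all genes had none. NRF2 regulators and targets, a list of 12 with a median of -0.50, made up 6 of the genes called lower. These 6 were Maff (-1.07), Nfe2l1 (-0.81), Bach1 (-0.53), Abcc1 (-0.52), Nfe2l2, which encodes NRF2 itself (-0.51), and its inhibitor Keap1 (-0.50), in the authors' deposited table. Txnrd1, the thioredoxin reductase of the cytosol, was called lower at -0.53, and Gstk1 (-0.63), Selenoi (-0.64) and Selenon (-0.50) likewise, in the authors' deposited table. Also called were Slc7a11 and the iron exporter Slc40a1, from 2.64 and 1.01 scaled counts. In cluster 8, 1 gene of the 113 (0.885%) was called higher and 4 (3.54%) lower, beside 2.37% and 19.5% of all genes. They included Mgst1 at 1.19, Gstm1 at -0.73 and Ucp2 at -0.57, in the authors' deposited table. Of the 4 called lower, 1 had no count, and 2961 of all genes had none in this cluster. Gpx3 was also called lower in cluster 8, from 2.22 scaled counts.

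**Figure D4:**
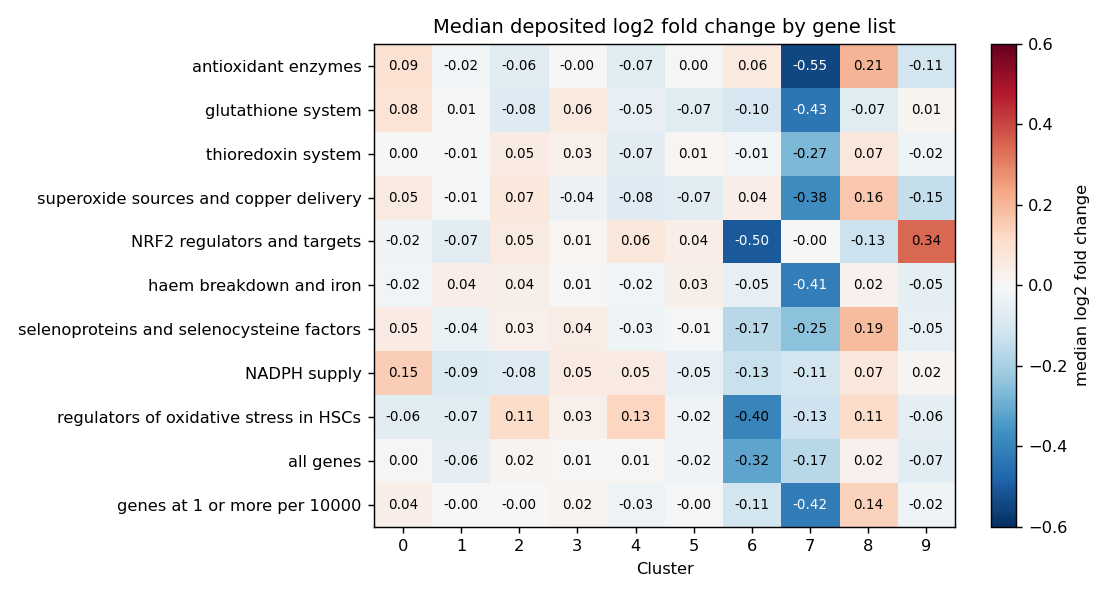
Median deposited log2 fold (colour and printed value) of the antioxidant enzymes, the 8 lists of other antioxidant genes, all genes and the genes with a mean level of at least 1 per 10000 (rows) in clusters 0 to 9 (columns). The enzymes are lowest in cluster 7, at -0.55 against -0.42 for the genes at 1 per 10000, and the NRF2 list is lowest in cluster 6, at -0.50.

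Pathway tables, in which the authors scored gene sets per cell, were read for the 28 of 2922 pathways whose names hold an antioxidant term. These sets can hold the 10 enzymes, so they are not separate support. In cluster 7, 24 of the 28 were below 0, where 73.7% of all pathways were, and their median log2 fold was -0.19 against -0.10 over all. Reactome detoxification of reactive oxygen species in the authors' deposited tables had log2 folds of -0.38, 0.10 and 0.08 in clusters 7, 8 and 0. Reactome glutathione synthesis and recycling in the authors' deposited tables had 0.25, -0.26 and -0.37 in clusters 0, 2 and 7. The other glutathione sets had smaller folds in clusters 0 and 2. They were 0.11 and -0.07 for KEGG glutathione metabolism and 0.08 and -0.08 for Reactome glutathione conjugation. WikiPathways glutathione metabolism had 0.11 and -0.14, and the WikiPathways gamma-glutamyl cycle set had 0.04 and -0.03. The WikiPathways set on peroxiredoxin and ovarian failure stood at 0.29 in cluster 8 and at -0.43 in cluster 7, per the authors' deposited tables. In cluster 8 the median of the 28 was 0.01, against 0.09 over all pathways, and 12 were below 0, where 20.4% of all were. In clusters 0 and 2 the median of the 28 was 0.02 and -0.01, against 0.02 and 0.01 over all.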

How the data were processed

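The material was 11 gene tables and 11 pathway tables, each setting 1 cluster against the remaining cells, with the 6 libraries pooled. About 30000 HSCs were sorted and about 10000 loaded per library, per the labels' protocols. The data were processed with Scanpy on mm10, per the submitters' processing notes; aligner, clustering settings, doublet handling and cell filters were not given in the sources used here.

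For each gene the authors deposited the log2 of its mean over all cells, in counts scaled to 10000 per cell (from the values, which sum to 10000), and a log2 fold of the cluster against the rest. The p-values the authors deposited are over cells, and an adjusted p-value stands beside each. In the pathway tables the authors deposited a score, a log2 fold and p-values per gene set. A gene with a log2 fold under -10 was taken to have no count in the cluster.

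Cluster sizes were inferred from the p-values of genes seen in 1 cell. The level in a cluster was m r / (1 + f (r - 1)), with m the mean level, r the linear fold and f the share of cells. Because the fold comes from averaged log values, this is an estimate; averaged back over cells it returned the deposited mean of the 10 genes within 0.79%. That return cannot show whether the folds are too small, since folds of 1 throughout would also give back the mean. The steps were tested on simulated data. Python 3.11.15 with pandas 2.3.3, numpy 2.4.6 and scipy 1.17.1 was used. Gene positions are from GENCODE M21 and promoters from RefSeq, both on GRCm38.

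No test was run, because each group is 1 mouse and the tables cannot be split. All 10 enzymes are named. Of each list, up to 4 called genes per cluster with the largest folds could be named, and for each enzyme the 3 genes with the highest Pearson's r among genes at or above the median mean level and with a count in clusters 0 to 9. The enzymes, lists and rules were chosen with earlier results of these data known. Nfe2l2 and Keap1 in cluster 6 were named after their values were seen. The genes most like Sod1 and 1 gene called in cluster 9 are not reported here. The alternatives tried were other thresholds, other centrings, a fold against all cells and other sets of clusters.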

Additional observations from a re-analysis of the deposited data

How the results depend on the processing

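With a fold of at least 0.25, 1 enzyme was called higher in cluster 0, 1 lower in cluster 2, 5 higher in cluster 8 and 1 lower in cluster 9, and of the other antioxidant genes 1 was called higher and 23 lower in cluster 6, against 12 lower as reported. With a fold of at least 1, the calls fell to 0 lower in cluster 7 and 0 higher in cluster 8, since no enzyme reached that size. With the fold alone and no adjusted p, 1 enzyme, Hmox1, was called lower in cluster 10. Centred on the median of genes with a mean level of at least 1 per 10000, an alternative chosen after seeing the data, 0 enzymes were called lower in cluster 7. Of the 110 folds, 110 kept their call (higher, lower or none) when set against the mean over all cells, 109 when centred on the genes with a count (Prdx1 in cluster 7 came to -0.50, short of the call), 104 when centred on the genes at 1 per 10000 and 108 when scaled without the mitochondrially encoded genes, also chosen after seeing the data. In the same order, 0, 16, 14 and 1 of the 110 changed sign, all of them folds that were not called. Of the 30 genes named as most like an enzyme, 0 were named again over clusters 0 to 5, 5 without cluster 7 and 1 by Spearman's rho. No paired analysis was possible because each group is 1 library and the results come from no test. Depth per library is not given in the files, so counting error in the small clusters could not be set against a fold.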

Other observations

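Cluster 10 held 10 cells, too few to read single genes. Sod1 stood at 0.44 and Prdx1 at 0.36 there in the authors' deposited table, and none of the 10 enzymes was called. Its Hmox1 level came from 0.291 scaled counts. Of the antioxidant lists, 2 genes were called higher there, the drug exporter Abcc1 and the stress kinase Mapk14, from 6.59 and 9.60 scaled counts. They were 1.77% of the 113 genes, beside 1.79% of all genes called higher. The 3 called lower (2.65%) had no count, beside 27.6% of all genes lower.

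In cluster 9, of 112 cells, 4 of the 113 other antioxidant genes (3.54%) were called higher and 4 (3.54%) lower. Of all genes, 1.2% were called higher and 19.9% lower there. Among the 4 called lower, 1 had no count, and 3350 of all genes had none in this cluster. None of the 10 enzymes was called. The authors' deposited table gave Maff a log2 fold of 1.72 and the glutathione transferases Gstp1 and Gstm1 0.83 and 0.53. Gstm5 (-0.81), the haem-making enzyme Fech (-0.83) and the selenocysteine kinase Pstk (-0.65) were lower in the authors' deposited table. The sets BioCarta ARE-NRF2, WikiPathways photodynamic therapy-induced NRF2 survival signalling and WikiPathways oxidative stress stood at 0.66, 0.80 and 0.47 there in the authors' deposited table. They were picked from the upper end of the 28 antioxidant pathways after their values were seen. The median of the 28 was 0.07 in cluster 9, against 0.04 over all pathways, and 8 were below 0. The WikiPathways NRF2 pathway was at 0.19 and Reactome detoxification of reactive oxygen species at -0.02 in the authors' deposited table. The 10 enzymes had a median of -0.11 in the same cluster, against -0.02 over the genes with a mean level of at least 1 per 10000.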
